A study of Mus musculus with 15 samples.

Results

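The hearts of 10 mice that received angiotensin II were compared with the hearts of 5 vehicle mice, and the text follows the genes that differed in the same direction in both exposed groups. The exposed libraries were 10 of the 15 libraries of the series and were chosen by their labels alone. All mice were wild-type C57BL/6 animals aged 10 weeks. The 5 AngII mice carried a subcutaneous pump that delivered 1000 ng/kg of angiotensin II per min. The same pump was carried by the 5 AngII plus OA mice, which were also given oleic acid, abbreviated OA, at 160 mg/kg in 0.3 mL each day. The 5 vehicle mice were given saline. Messenger RNA was enriched with oligo(dT) beads from ventricular RNA and sequenced on an Illumina HiSeq2000, per the labels' protocols, which call the 5 libraries of each group biological replicates. The labels used here do not state how long the pumps ran, the route of the oleic acid or the sex of the mice. Oleic acid was given to 5 of the 10 exposed mice and to none of the vehicle mice, so a change common to the exposed groups is one seen with the pump both with and without oleic acid.

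Angiotensin II is the effector peptide of the renin-angiotensin system. It acts mainly through the AT1 receptor, encoded in mice by Agtr1a and Agtr1b, and raises blood pressure by constricting vessels. In the heart a lasting rise in pressure load is known to enlarge cardiomyocytes, which re-express genes of the fetal heart, and to activate fibroblasts, which then deposit collagen-rich matrix. The comparison came with 3 marker genes. Ankrd1 encodes a stress-responsive ankyrin repeat protein that binds titin in the sarcomere and also acts in the nucleus. Enah encodes Mena, an actin-regulating protein of the intercalated disc, and Postn encodes periostin, a matricellular protein of activated fibroblasts.

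The deposited values were FPKM, fragments normalised for gene length and library size, so that levels can be compared between genes per length. The 15 libraries were scaled to between 24.5 and 28.3 M fragments, and 10990 to 11528 genes reached 1 FPKM. Genes with a mean of 0.5 to 1 FPKM rested on a median of about 56.5 reads per library, and genes of at least 5 FPKM on about 1254, estimated from exon lengths. Of 13 cardiomyocyte markers, 0 were at 0 in all libraries. The same held for every cell type list, so it does not test the heart origin in the labels. The summed level of the cardiomyocyte markers was 19403 to 42518 FPKM in exposed hearts and 31277 to 38835 FPKM in vehicle hearts. The sum of these markers was not used to separate ventricle from atrium. AngII replicate 2 stood apart from the other 14 libraries. It lay at 66.1 on principal component 1, which held 29.0% of the variance, while the others lay between -17.2 and 8.98. It had the lowest cardiomyocyte sum, and its sums of atrial muscle markers (2583 FPKM), adipocyte markers (351 FPKM), mesothelial markers (88.9 FPKM) and B cell markers (159 FPKM) exceeded the highest in any other library, which were 726, 110, 17.4 and 35.6 FPKM. Atrial sums also varied among the other libraries, from 11.2 to 626 FPKM in exposed hearts and 10.1 to 726 FPKM in vehicle hearts. Counts of called genes without AngII replicate 2 are given beside the gene lists. The summed FPKM share of mitochondrially encoded genes was 41.8% ± 4.10 in exposed hearts (SD, n = 10) and 47.1% ± 2.52 in vehicle hearts (SD, n = 5). The difference of -5.29 percentage points had a 2-sided exact permutation p = 0.0230. It missed the threshold for protein-coding mitochondrial genes alone (exact permutation p = 0.0633) and without vehicle replicate 4 (0.0609) or 5 (0.0589). The share is of summed FPKM, not of the fragments that FPKM are scaled by, and the fragment share is not given here. The part of the FPKM share in the results below was tested only by rescaling.

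Few genes passed the test of exposed against vehicle hearts. Ankrd1 and Pi16, a gene expressed in cardiac fibroblasts, rose (0.0152% of genes), and the noncoding transcript BB218582 fell (0.00762%). These were 3 of the 13121 genes with a mean of at least 0.5 FPKM, or 0.0229%, at a limma adjusted p under 0.05. A 2-group fit of the pooled exposed libraries called 0 genes, and quantile normalization left 1 call. At an unadjusted p under 0.05 there were 1145 higher genes (8.73%) and 287 lower ones (2.19%). Many genes lay just past the threshold, since 43 genes (0.328%) had an adjusted p under 0.06 and 105 (0.800%) one under 0.1. With the exposed groups taken apart, 197 genes (1.50%) were called in AngII against vehicle, where 13.3% were higher and 3.29% lower at an unadjusted p under 0.05. For AngII plus OA against vehicle limma made 0 calls, with 441 genes (3.36%, 2.58% higher and 0.785% lower) at an unadjusted p under 0.05, and limma's voom on estimated reads called 0. The number of genes called in both exposed groups with the same sign was therefore 0 by limma and 0 by voom. At an unadjusted p under 0.05 in both groups, 321 genes (2.45%) had the same sign, 261 higher in both (1.99%) and 60 lower in both (0.457%), and these comparisons share their vehicle libraries. With a looser definition, a call in exposed against vehicle and a log2 change of at least 0.5 in each exposed group, the count was 2, Ankrd1 and Pi16.

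Ankrd1 (ENSMUSG00000024803) stood at 1466, 1027, 956, 1097 and 941 FPKM in AngII hearts, and at 796, 1474, 762, 729 and 498 FPKM in AngII plus OA hearts. The vehicle hearts had 461, 286, 401, 399 and 222 FPKM. In the deposited FPKM every exposed heart lay above every vehicle heart, and AngII plus OA replicate 5 came closest to the vehicle range. After quantile normalization the ranges overlapped. The means were 975 ± 312 FPKM in exposed hearts (SD, n = 10) and 354 ± 97.1 FPKM in vehicle hearts (SD, n = 5), a 2.76-fold ratio. The log2 change was 1.44 (SE 0.22, limma adjusted p = 0.0443), with 1.66 in AngII and 1.22 in AngII plus OA. AngII plus OA minus AngII was -0.44 for Ankrd1, with a 95% interval of -0.98 to 0.10.

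Pi16 (ENSMUSG00000024011) encodes a secreted peptidase inhibitor. It had 53.3, 47.7, 52.0, 63.9 and 91.2 FPKM in AngII hearts and 47.1, 31.3, 43.1, 53.0 and 27.9 FPKM in AngII plus OA hearts, against 19.2, 18.3, 25.0, 23.6 and 26.1 FPKM in vehicle hearts. The deposited exposed and vehicle ranges did not overlap, although AngII plus OA replicates 2 and 5 were close to the highest vehicle heart. They did overlap after rescaling without mitochondrially encoded genes and after quantile normalization. Its mean was 51.1 ± 17.7 FPKM in exposed hearts and 22.5 ± 3.52 FPKM in vehicle hearts (SD, n = 10 and 5). The log2 change was 1.09 (SE 0.17, limma adjusted p = 0.0443), with 1.39 in AngII and 0.80 in AngII plus OA. AngII plus OA minus AngII was -0.60 for Pi16 (95% interval -1.01 to -0.18, adjusted p = 0.706), so that difference did not pass over all genes. In bulk tissue, more cells of a type and more RNA per cell cannot be told apart.

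BB218582 (ENSMUSG00000085218), a transcript annotated as noncoding, fell. Its levels were 6.06, 5.92, 7.28, 5.80 and 7.19 FPKM in AngII hearts, 9.75, 8.20, 8.30, 10.4 and 11.8 FPKM in AngII plus OA hearts, and 10.6, 14.1, 14.2, 12.8 and 12.8 FPKM in vehicle hearts. All AngII hearts were below all vehicle hearts, while the AngII plus OA hearts lay between and overlapped the vehicle range. The log2 change was -0.64 (SE 0.10, limma adjusted p = 0.0443), with -0.90 in AngII and -0.39 in AngII plus OA. AngII plus OA minus AngII was 0.52 for BB218582 (95% interval 0.28 to 0.76, adjusted p = 0.574).

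**Figure D1:**
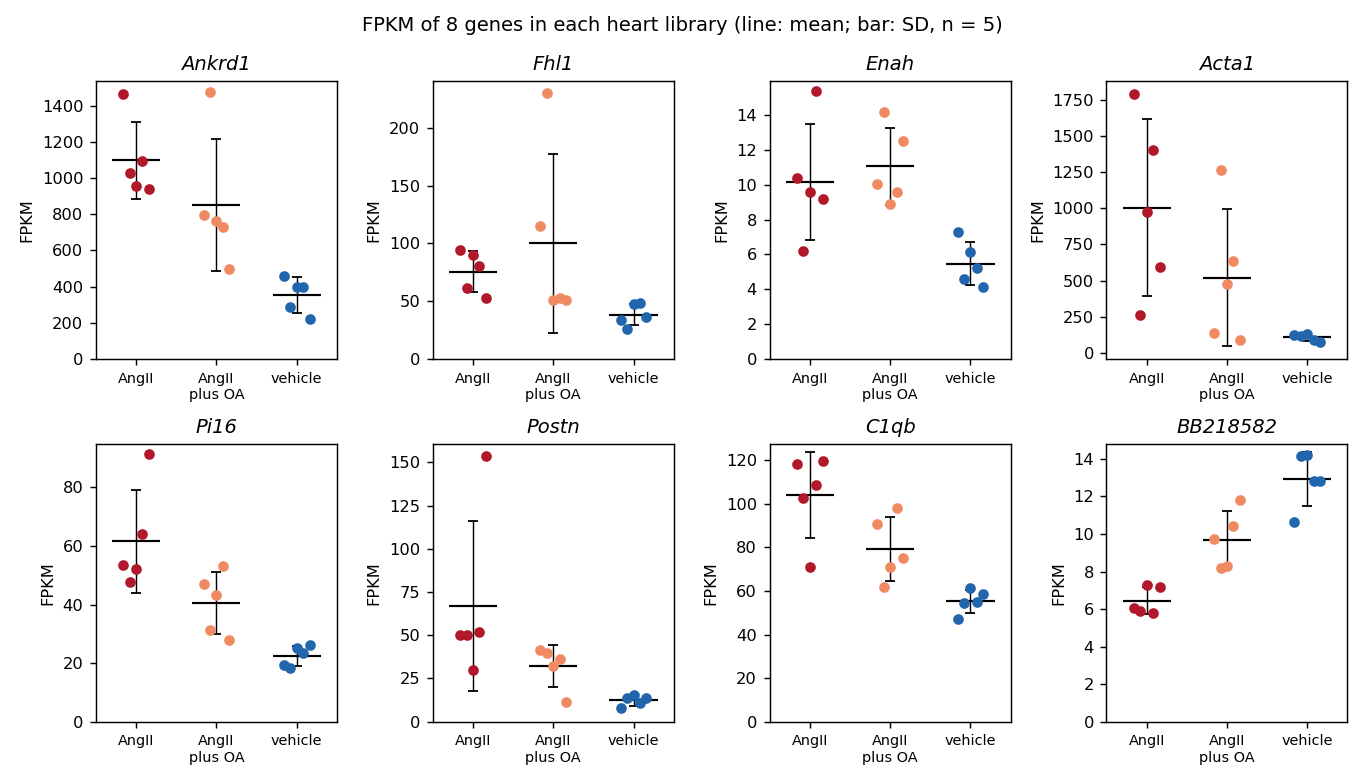
FPKM of 8 genes in each library (points), for AngII, AngII plus OA and vehicle hearts from left to right; black lines are group means and bars are SD (n = 5 each). The 10 exposed points of Ankrd1 lie between 498 and 1474 FPKM and those of vehicle between 222 and 461 FPKM, while BB218582 lies lower in AngII hearts.

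The 3 calls depended on single libraries, in the vehicle group as well as in the exposed groups. The adjusted p of Ankrd1, Pi16 and BB218582 was 0.0919 and 0.0693 when AngII replicate 1 or 4 was left out, and 0.105, 0.0728 and 0.0819 without AngII plus OA replicates 1, 3 and 4. It was 0.102, 0.0950, 0.0696 and 0.121 without vehicle replicates 2, 3, 4 and 5. Without vehicle replicate 1 the call of Pi16 alone ended (0.0687). Their log2 changes moved little, to between 1.29 and 1.55 for Ankrd1, 1.02 and 1.15 for Pi16, and -0.71 and -0.61 for BB218582. Leaving out other libraries lengthened the list of called genes. It held 91 genes (0.694%) or 106 genes when AngII replicate 2 or 3 was left out, 63 without AngII plus OA replicate 5, and 0 genes in 9 of the 15 such fits, as the plot of calls by left-out library shows. With libraries weighted by their residual spread, AngII replicate 2 received a weight of 0.155 and 81 genes were called, 67 of them also called without that library.

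**Figure D2:**
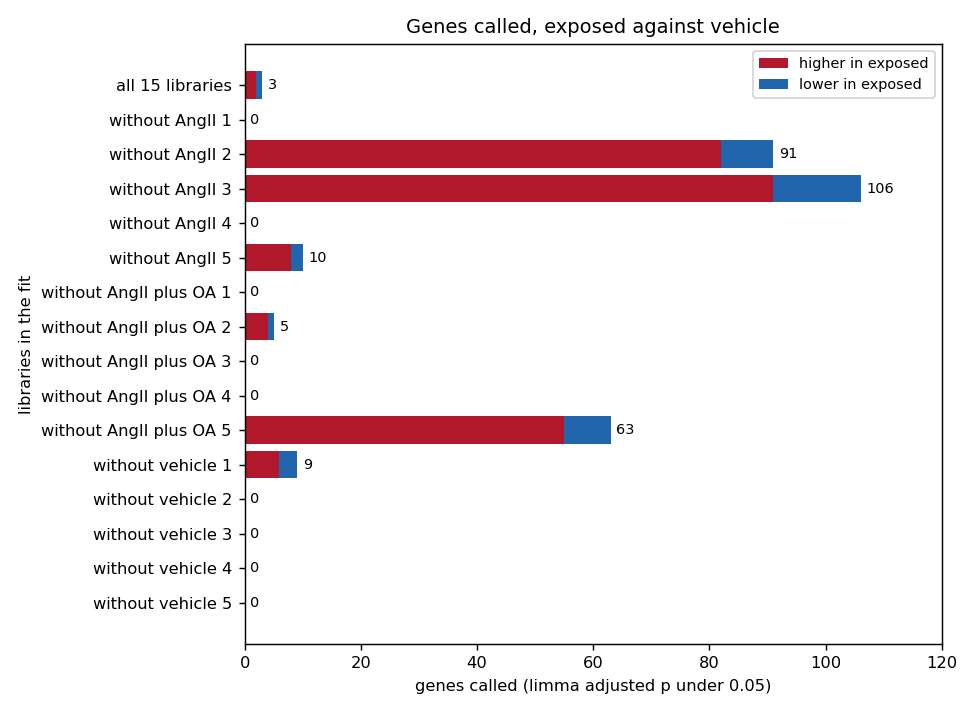
Number of genes called in exposed against vehicle hearts at a limma adjusted p under 0.05 (x axis), with all 15 libraries and with each library left out in turn (y axis); red counts are higher and blue counts lower in exposed hearts. The total is 3 with all libraries, and 91 or 106 when AngII replicate 2 or 3 is left out.

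With all libraries the markers Enah and Postn missed the threshold narrowly, and most fits with 1 library left out did not call them. Enah (ENSMUSG00000022995) had 10.4, 6.21, 9.58, 15.4 and 9.19 FPKM in AngII hearts, 10.1, 14.2, 8.90, 9.61 and 12.5 FPKM in AngII plus OA hearts, and 7.28, 4.59, 6.16, 5.20 and 4.16 FPKM in vehicle hearts. Only AngII replicate 2 lay within the vehicle range. The log2 change of Enah was 0.83 (SE 0.17, limma adjusted p = 0.0565), with 0.76 in AngII and 0.90 in AngII plus OA, and AngII plus OA minus AngII was 0.14 (95% interval -0.27 to 0.55). Enah passed in 2 of 15 fits with 1 library left out, without AngII replicate 2 (limma adjusted p = 0.0358) or AngII replicate 3 (0.0413). The highest limma adjusted p of those 15 fits was 0.169.

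Postn (ENSMUSG00000027750) had 50.1, 50.2, 29.8, 52.1 and 153 FPKM in AngII hearts, 41.4, 39.9, 32.3, 36.3 and 11.4 FPKM in AngII plus OA hearts, and 7.68, 13.8, 15.6, 10.8 and 13.6 FPKM in vehicle hearts. All exposed hearts but AngII plus OA replicate 5 lay above the vehicle hearts. The log2 change of Postn was 1.70 (SE 0.34, limma adjusted p = 0.0550), with 2.16 in AngII and 1.24 in AngII plus OA. Postn passed in 3 of 15 fits with 1 library left out. These were without AngII replicate 2 (limma adjusted p = 0.0412), AngII replicate 3 (0.0307) or AngII plus OA replicate 5 (0.0107). The highest limma adjusted p of the 15 fits was 0.158. AngII plus OA minus AngII was -0.92 for Postn (95% interval -1.75 to -0.10, adjusted p = 0.737).

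Acta1 (ENSMUSG00000031972), the skeletal alpha-actin that the fetal heart expresses, had the largest log2 change of the 14 fixed genes, 2.33 (SE 0.55, limma adjusted p = 0.0972). Its levels were 1793, 260, 976, 1405 and 592 FPKM in AngII hearts, 138, 1266, 476, 638 and 85.8 FPKM in AngII plus OA hearts, and 126, 116, 129, 89.9 and 74.4 FPKM in vehicle hearts. AngII plus OA replicate 5 fell inside the vehicle range and replicate 1 of that group just above it, while the other 8 exposed hearts were well above. Acta1 passed in 2 of 15 fits with 1 library left out, without AngII replicate 2 (limma adjusted p = 0.0412) or AngII plus OA replicate 5 (0.0333). The highest limma adjusted p of those 15 fits was 0.277.

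The promoters of Ankrd1, Acta1, Enah and Postn are shown because these genes are the 3 markers and the fixed gene with the largest log2 change. Each is the RefSeq window around a start of transcription on GRCm38.p6 and was matched by symbol. For Postn, which has 2 starts in that table, the start with a TATA match is printed. Capitals mark matches, on either strand, to 4 of the motifs searched. MCAT, the element bound by TEAD factors, was searched as CATTCC. The Sp1 motif was searched as GGGCGG. The TATA box was searched as TATAAA. The CArG box is the element bound by serum response factor.
Ankrd1 promoter, chr19:36119795-36120094, minus strand: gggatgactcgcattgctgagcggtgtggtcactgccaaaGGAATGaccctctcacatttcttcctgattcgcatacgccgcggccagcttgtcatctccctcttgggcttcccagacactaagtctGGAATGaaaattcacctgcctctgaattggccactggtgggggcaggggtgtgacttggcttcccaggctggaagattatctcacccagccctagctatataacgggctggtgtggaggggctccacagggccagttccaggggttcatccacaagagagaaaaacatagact
Acta1 promoter, chr8:123894726-123895025, minus strand: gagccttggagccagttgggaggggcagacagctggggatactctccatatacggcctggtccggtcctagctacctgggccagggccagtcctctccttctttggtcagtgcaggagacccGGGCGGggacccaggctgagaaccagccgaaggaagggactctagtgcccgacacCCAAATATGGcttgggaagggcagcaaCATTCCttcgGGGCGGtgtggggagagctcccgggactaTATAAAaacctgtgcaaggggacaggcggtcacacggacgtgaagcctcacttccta
Enah promoter, chr1:182019931-182020230, minus strand: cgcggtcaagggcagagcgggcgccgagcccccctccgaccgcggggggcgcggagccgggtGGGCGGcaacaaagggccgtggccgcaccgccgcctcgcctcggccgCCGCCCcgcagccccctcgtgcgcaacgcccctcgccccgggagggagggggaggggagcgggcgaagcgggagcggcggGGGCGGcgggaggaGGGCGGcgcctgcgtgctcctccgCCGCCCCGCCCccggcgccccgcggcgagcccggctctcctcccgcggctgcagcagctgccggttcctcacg
Postn promoter, chr3:54360857-54361156, plus strand: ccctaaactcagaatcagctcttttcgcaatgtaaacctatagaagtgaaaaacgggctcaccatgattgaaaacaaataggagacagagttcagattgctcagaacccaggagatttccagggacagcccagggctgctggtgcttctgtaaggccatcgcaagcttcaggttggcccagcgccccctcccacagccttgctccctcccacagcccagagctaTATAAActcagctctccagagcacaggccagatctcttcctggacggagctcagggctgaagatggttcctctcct
The Ankrd1 window held 2 MCAT matches, 204 and 117 bases before the start. The Acta1 window held a CArG box 63 bases and an MCAT match 40 bases before the start, with Sp1 matches 122 and 30 bases before it and a TATA match 1 base before it. The Postn window held a TATA match 20 bases before the start. Distances are counted from the annotated start, which these data do not test. The Enah window, rich in G and C, held 6 Sp1 matches, 2 of which overlap by 1 base, and none of the other letters searched. MCAT was found in 14.7% of the 32851 RefSeq promoters of that length, Sp1 in 35.7%, TATA in 13.6% and the CArG box in 1.63%. AP-1 (TGACTCA, 5.20%), SMAD (GTCTAGAC, 0.213%) and MEF2 (0.557%) had no match in these windows. A match is a description of letters, and binding was not measured.

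All 10 exposed values lay beyond all 5 vehicle values for 46 genes, or 0.351% of those tested, 36 higher (0.274%) and 10 lower (0.0762%). They are named here after their values were seen, and apart from Ankrd1 and Pi16 none passed the test over all libraries. Proteins of the muscle cytoskeleton were among the higher ones, namely Ankrd1, Fhl1, Des and Smpx. Fhl1, a LIM protein that binds titin, had 52.7 to 94.0 FPKM in AngII hearts and 51.1 to 230 FPKM in AngII plus OA hearts, against 26.3 to 48.1 FPKM in vehicle hearts (log2 change 1.04, adjusted p = 0.195). Des, the intermediate filament desmin, had a lowest, median and highest value of 545, 600 and 918 FPKM in exposed hearts, against 447, 491, 398, 357 and 364 FPKM in vehicle hearts. Its log2 change was 0.66 (SE 0.13, adjusted p = 0.0550), with 0.68 in AngII and 0.63 in AngII plus OA. Smpx, a small muscle protein with links to mechanical stress, had 166 to 212 FPKM in exposed hearts and 135 to 150 FPKM in vehicle hearts, with a log2 change of 0.37 in each exposed group. For Des and Smpx, AngII plus OA minus AngII had 95% intervals of -0.36 to 0.27 and -0.19 to 0.21.

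Of the complement and macrophage lists, C1qb and C1qc were among the 36 higher genes. The complement subunit C1qb had 118, 103, 70.8, 109 and 119 FPKM in AngII hearts, 90.5, 61.8, 71.1, 98.0 and 75.1 FPKM in AngII plus OA hearts, and 47.1, 54.4, 61.1, 54.9 and 58.7 FPKM in vehicle hearts. The margin between AngII plus OA replicate 2 and vehicle replicate 3 was under 1 FPKM. C1qb had a log2 change of 0.69 (adjusted p = 0.0550) and its partner C1qc one of 0.57 (0.0842). Fcgr2b, the inhibitory Fc receptor, had 0.62, and Pla2g7, a phospholipase that cleaves platelet-activating factor, had 0.87. Among secreted proteins, Srpx had a log2 change of 0.84, Fetub 0.83 and the heparan sulfate sulfatase Sulf2 0.34, the last with 0.34 in AngII and 0.35 in AngII plus OA. Other members of the higher group were the methionine sulfoxide reductase Msrb1 (0.58), the channel protein Panx1 (0.53), the prion protein Prnp (0.49) and Otulin, a protease of linear ubiquitin chains (0.65), whose gene overlaps Ank on the other strand.

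The 10 lower genes were of mixed function. Sned1, an extracellular matrix protein, had 0.945 to 2.04 FPKM in exposed hearts and 2.18 to 3.01 FPKM in vehicle hearts (log2 change -0.52, adjusted p = 0.0550), although its gene overlaps Mterf4 on the other strand. Plxnb1, a semaphorin receptor, had a log2 change of -0.66 (adjusted p = 0.172), and its lowest value, 0.915 FPKM, was in AngII replicate 2. The skeletal muscle calcium channel Cacna1s had 0.0868 to 0.462 FPKM in exposed hearts and 0.603 to 1.197 FPKM in vehicle hearts. Gm14508, a noncoding transcript antisense to Prkab1, had -0.39, and reads of that pair cannot be told apart because the strand setting is not given. Fkbp4, a cochaperone of HSP90, had 28.8 FPKM in AngII replicate 2 and 77.0 to 109 FPKM in the other exposed hearts, against 111 to 135 FPKM in vehicle hearts.

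The split between higher and lower genes moved with the scaling. With FPKM rescaled without mitochondrially encoded genes, 30 genes did not overlap, 10 higher and 20 lower, and 16 of the 46 were among them, 9 higher and 7 lower. Those 16 were 34.8% of the 46 and 53.3% of the 30. After quantile normalization 40 genes did not overlap, 24 higher and 16 lower, of which 14 higher and 9 lower were in the first set. Sap30, Des, Cystm1, Fetub and Panx1 were higher, and Sned1, Plxnb1, Cacna1s, Gm14508, Kdm8, Smtn and 2210011C24Rik lower, in all 3 versions. Ankrd1 kept its separation after rescaling but not after quantile normalization. Pi16, Fhl1, Smpx, C1qc, Prnp and Sulf2 kept it under neither.

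**Figure D3:**
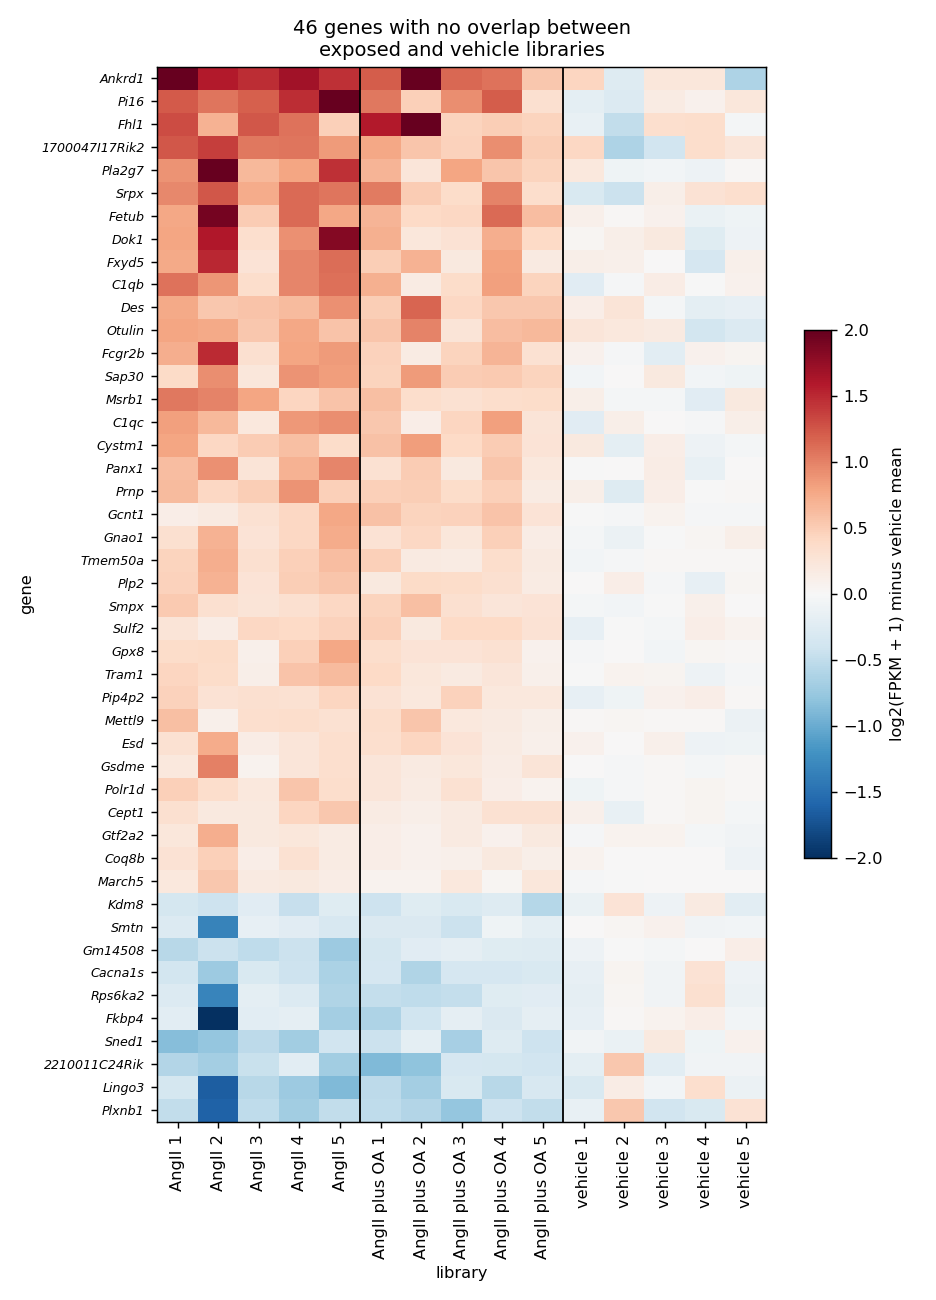
The 46 genes whose 10 exposed values (AngII and AngII plus OA, left) all lay above or all below the 5 vehicle values (right); each cell is log2(FPKM + 1) minus the vehicle mean of the gene, drawn up to 2 in size. The genes were picked for this pattern, 36 higher and 10 lower, and AngII replicate 2 holds many of the extreme cells.

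Members of the gene lists are named below as the called ones or the 2 most abundant, and any other member was chosen after its values were seen. List counts at an unadjusted p under 0.05 stand against 8.73% of all tested genes higher and 2.19% lower. List counts called without AngII replicate 2 stand against 0.694% of all tested genes called in that fit. Most fits with another library left out called 0 genes. Extracellular matrix genes were mostly higher in the exposed hearts, but 0 members of the 6 matrix lists were called by limma with all libraries. Of 17 tested collagen genes (19 listed), 11 were higher at an unadjusted p under 0.05 and 0 lower, where 8.73% and 2.19% of all tested genes were. The median log2 change of the collagen list was 0.51, against 0.05 over all tested genes, and 16 of 17 members were above 0, against 64.3% of all genes. The collagen median was 0.79 in AngII and 0.30 in AngII plus OA. Col1a1, a chain of type I collagen, had 40.5, 17.1, 26.8, 32.7 and 59.1 FPKM in AngII hearts, 19.0, 24.02, 18.8, 27.6 and 8.05 FPKM in AngII plus OA hearts, and 9.73, 10.7, 11.5, 10.3 and 11.1 FPKM in vehicle hearts. Every exposed heart but AngII plus OA replicate 5 was above the vehicle range. Its log2 change was 1.12 (SE 0.26, limma adjusted p = 0.0866). The limma adjusted p was 0.0372 without AngII replicate 2 and up to 0.219 with another library left out. Col3a1, the type III chain, also had 1.12 (adjusted p = 0.0843), with AngII plus OA replicate 5 at 20.2 FPKM among vehicle values of 18.5 to 33.3 FPKM. The most abundant collagens, Col4a1 and Col4a2 of the basement membrane, whose genes overlap, had 0.50 and 0.51, with 0.90 each in AngII and 0.09 and 0.12 in AngII plus OA. Without AngII replicate 2, 3 of 17 collagens were called, against 0.694% of all tested genes.

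Among the enzymes that process collagen, 2 were called without AngII replicate 2. Of 20 tested members (22 listed), 11 were higher at an unadjusted p under 0.05 and 0 lower, with a median of 0.33, or 0.44 in AngII and 0.24 in AngII plus OA. Loxl1, a cross-linking lysyl oxidase, had 15.95, 28.9 and 49.9 FPKM as lowest, median and highest value in exposed hearts, against 13.4 to 18.1 FPKM in vehicle hearts (log2 change 0.89, SE 0.15, adjusted p = 0.0540). Voom on estimated reads called Loxl1, at an adjusted p of 0.0455. Adamts2, the procollagen N-proteinase, had a log2 change of 0.72 (0.0550). The most abundant members, the collagen chaperone Serpinh1 and the proteinase enhancer Pcolce, had 0.18 and 0.62. Serpinh1 was at 63.6 FPKM in AngII replicate 2, below every other library.

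Matricellular glycoproteins had the largest median of the pathway lists, 0.77, with 0.96 in AngII and 0.41 in AngII plus OA. Of 19 tested members (20 listed), 13 were higher at an unadjusted p under 0.05, 0 were lower, and 4 were called without AngII replicate 2. Cilp, a protein that binds TGF-beta and IGF1, had 32.1, 37.8, 19.98, 33.7 and 112 FPKM in AngII hearts, 36.3, 18.4, 17.0, 24.8 and 5.64 FPKM in AngII plus OA hearts, and 3.48, 4.78, 5.89, 3.98 and 6.64 FPKM in vehicle hearts. AngII plus OA replicate 5 was the exposed heart within the vehicle range. The log2 change of Cilp was 2.23 (SE 0.37, limma adjusted p = 0.0540), and voom on estimated reads called it at 0.0455. Sparc, a collagen-binding protein and the most abundant member, had 0.77, with 1.17 in AngII and 0.36 in AngII plus OA, and Sparcl1 had 0.16. Thbs4, a thrombospondin named after its values were seen, averaged 31.4 ± 46.7 FPKM in exposed hearts and 2.78 ± 1.198 FPKM in vehicle hearts (SD, n = 10 and 5), with an adjusted p of 0.0565.

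Elastic fibre and proteoglycan genes had 15 of 23 tested members (24 listed) higher at an unadjusted p under 0.05, 0 lower, and a median of 0.51 (0.74 in AngII, 0.29 in AngII plus OA), and 4 were called without AngII replicate 2. Mfap5, a microfibril protein, had a lowest, median and highest value of 12.9, 44.0 and 116 FPKM in exposed hearts, against 7.90 to 16.6 FPKM in vehicle hearts (log2 change 1.58, adjusted p = 0.0550). Biglycan, Bgn, had 0.97 (0.0550) and decorin, Dcn, the most abundant of the list, 0.42 (0.536). Of 13 tested metalloproteinases and inhibitors (16 listed), 4 were higher at an unadjusted p under 0.05, against 8.73% of all tested genes. Without AngII replicate 2, 1 of the 13 was called. The gelatinase Mmp2 had 19.1 to 76.1 FPKM in exposed hearts and 14.8 to 23.3 FPKM in vehicle hearts (log2 change 0.997, adjusted p = 0.0550), and Timp2 had 0.24. Timp1, an inhibitor of metalloproteinases, averaged 40.3 ± 27.2 FPKM in exposed hearts and 8.40 ± 4.65 FPKM in vehicle hearts, with an adjusted p of 0.0753.

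Genes of TGF-beta signalling, the main fibrogenic pathway, had smaller changes. Of 19 tested members (20 listed), 9 were higher at an unadjusted p under 0.05 and 0 lower, and the median was 0.25, with 0.41 in AngII and 0.10 in AngII plus OA. The ligands Tgfb1, Tgfb2 and Tgfb3 had log2 changes of 0.22, 0.35 and 0.38, and the receptors Tgfbr1 and Tgfbr2 0.39 and 0.47. Ccn2, a target of the pathway also known as connective tissue growth factor, had 64.1, 374, 49.5, 145 and 105 FPKM in AngII hearts, 68.6, 82.1, 60.3, 90.8 and 114 FPKM in AngII plus OA hearts, and 44.2, 21.6, 84.5, 35.8 and 36.5 FPKM in vehicle hearts. Vehicle replicate 3 lay within the exposed range, and AngII replicate 2 had the highest value (log2 change 1.23, adjusted p = 0.223). Bmp6, which overlaps Txndc5, had 0.18.

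Markers of fibroblasts partly repeat these lists, so their direction is not a separate observation. Of 9 activated fibroblast markers, all but Meox1 and Fap are also matrix list members, and 7 were higher at an unadjusted p under 0.05. Their summed level was 39.8 to 544 FPKM in exposed hearts and 28.5 to 49.4 FPKM in vehicle hearts. The 544 FPKM was AngII replicate 5, and the next exposed heart had 175 FPKM. Of 9 general fibroblast markers, which share Col1a2 and Mfap4 with the matrix lists, 5 were higher at that threshold, Pi16 among them. Their sums were 527 to 1152 FPKM in exposed hearts and 528 to 892 FPKM in vehicle hearts. The median of the general list was 0.24, with 0.35 in AngII and 0.11 in AngII plus OA. The last was 0.01 after rescaling without mitochondrially encoded genes. In both lists 0 members were at 0 in all libraries, as in every other cell type list. The part of cell number in the matrix changes was not tested.

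Proteins of the Z-disc and intercalated disc, which anchor and couple the contractile filaments, had medians above 0 in both exposed groups. Of 22 tested members, 13 were higher at an unadjusted p under 0.05, 0 were lower and 0 were called by limma, and 3 were called without AngII replicate 2. The median was 0.42, with 0.42 in AngII and 0.45 in AngII plus OA. In these groups it was 0.34 and 0.43 after a shift to 1 median. It was 0.34 and 0.35 after rescaling without mitochondrially encoded genes, and 0.29 and 0.31 after quantile normalization. The median of AngII plus OA minus AngII was 0.02, and limma called 0 members in that contrast. For the collagen list that median was -0.45, for the matricellular list -0.64, and over all tested genes -0.05. Besides Enah and Des, Xirp2, an intercalated disc protein named after its values were seen, averaged 77.6 ± 35.6 FPKM in exposed hearts and 29.3 ± 8.22 FPKM in vehicle hearts (SD, n = 10 and 5; log2 change 1.27, adjusted p = 0.125). Filamin C, Flnc, had 1.03, with 0.86 in AngII and 1.21 in AngII plus OA. Cryab, the small heat shock protein that protects desmin and the most abundant member, had 0.42 (adjusted p = 0.403), and its gene neighbours and overlaps Hspb2.

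Stretch sensing and titin-linked proteins were more mixed. Of 15 tested members (16 listed) Ankrd1 was the 1 called, 5 were higher and 1 lower at an unadjusted p under 0.05, and the median was 0.19, or 0.18 in AngII and 0.24 in AngII plus OA. That median was 0.06 without vehicle replicate 5, 0.31 without vehicle replicate 3 and 0.10 after quantile normalization. Csrp3, a muscle LIM protein, had 0.56 and the titin cap Tcap 0.47. Titin itself, Ttn, had -0.11. Ky, a protein that maintains muscle structure, was the lower member, at 0.750 ± 0.341 FPKM in exposed hearts and 1.82 ± 0.754 FPKM in vehicle hearts (log2 change -0.67, adjusted p = 0.0761).

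Fetal and hypertrophic genes had no common direction. Their median was 0.00, 4 of 16 tested members (18 listed) were higher at an unadjusted p under 0.05, and the sign of the median turned negative under each rescaling tried. Myl4 and Myl7 of this list are also atrial markers, and the part of atrial tissue was not tested. Nppb, which encodes B-type natriuretic peptide, had 467, 1301, 520, 2468 and 610 FPKM in AngII hearts, 667, 1223, 907, 1027 and 860 FPKM in AngII plus OA hearts, and 756, 693, 323, 316 and 332 FPKM in vehicle hearts. Vehicle replicates 1 and 2 lay inside the exposed range (log2 change 0.99, adjusted p = 0.292). Nppa, the atrial peptide, ranged from 24.7 to 585 FPKM in exposed hearts and 10.497 to 79.4 FPKM in vehicle hearts, with its highest value in AngII replicate 2 (log2 change 1.199, adjusted p = 0.471). Rcan1, a calcineurin target and inhibitor, had 37.6, 59.3 and 111 FPKM as lowest, median and highest exposed value and 22.9 to 49.2 FPKM in vehicle hearts (log2 change 0.92, adjusted p = 0.118). The myosin heavy chains Myh6 and Myh7 had -0.01 and -0.06, with adjusted p of 0.987 and 0.948, and reads of Myh7 may include its antisense transcript Mhrt. For Myh7, AngII plus OA minus AngII was 0.58 (95% interval 0.11 to 1.05, adjusted p = 0.7102). Actc1, the cardiac alpha-actin, had 0.07.

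**Figure D4:**
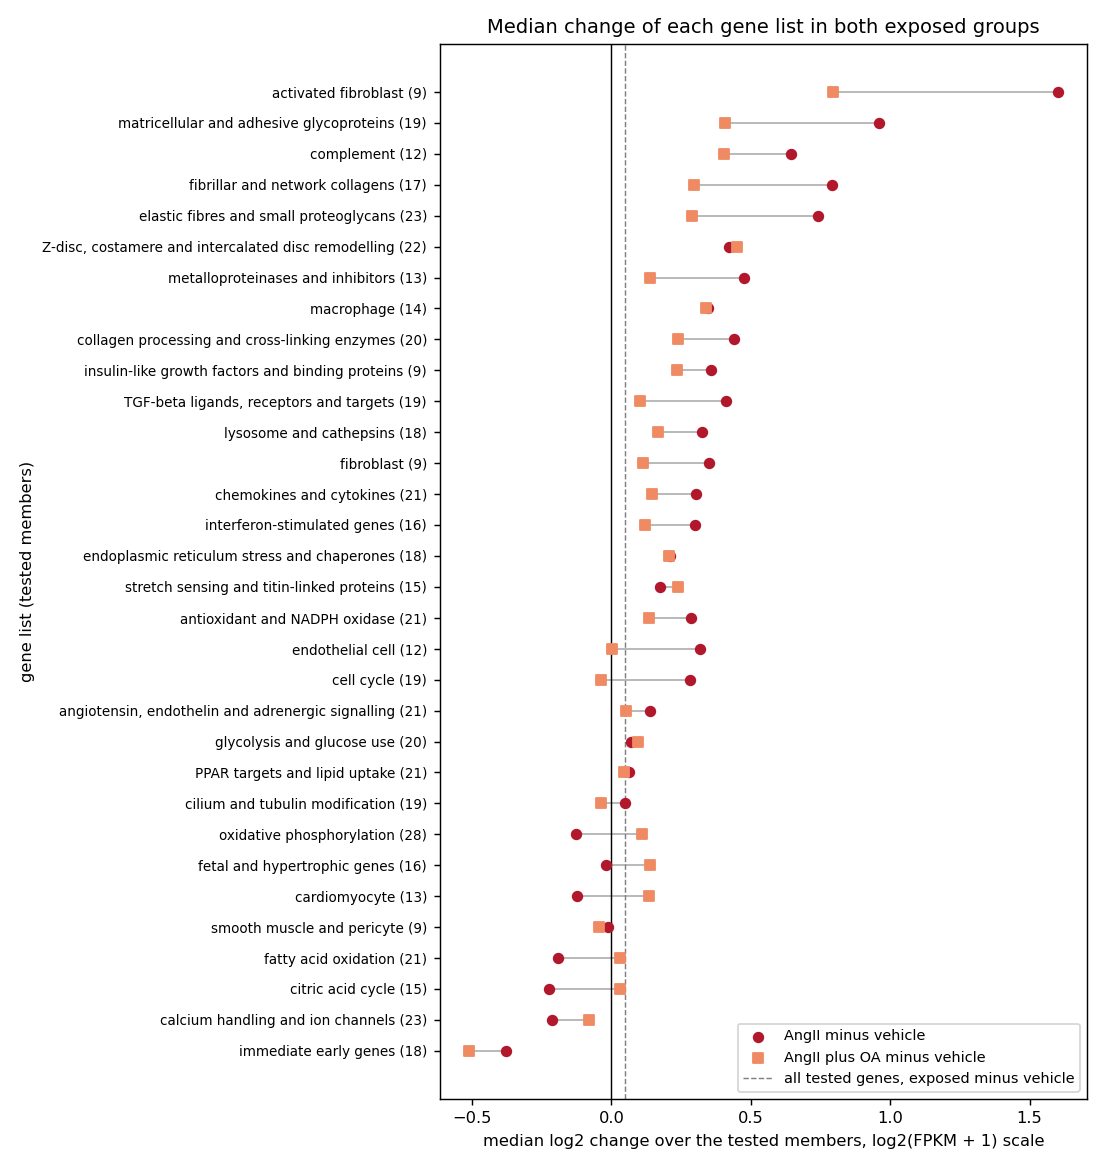
Median log2 change against vehicle hearts of each pathway or cell type list with at least 9 tested members, in AngII (circles) and AngII plus OA (squares). Shorter lists are not drawn. The number of tested members stands in brackets, and the dashed line marks the median of all tested genes, 0.05. The groups share their vehicle libraries. The matricellular list lies at 0.96 and 0.41, while the Z-disc list lies at 0.42 and 0.45.

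Complement and macrophage genes were higher in direction throughout. All 12 tested complement genes (14 listed) were above 0, 6 of them at an unadjusted p under 0.05, with a median of 0.51 (0.64 in AngII, 0.40 in AngII plus OA). All 14 macrophage markers were above 0, 8 at an unadjusted p under 0.05, with a median of 0.33 (0.35 in AngII, 0.34 in AngII plus OA). The lists share the 3 C1q genes, and limma called 0 members of either, while 1 of each, C1qb, was called without AngII replicate 2. C1qa had 133, 114, 88.6, 149 and 159 FPKM in AngII hearts, 110, 81.5, 100, 126 and 97.9 FPKM in AngII plus OA hearts, and 60.6, 94.1, 67.2, 71.1 and 72.8 FPKM in vehicle hearts. Vehicle replicate 2 lay above the lowest exposed values (log2 change 0.64, adjusted p = 0.0781). Lyz2, a macrophage lysozyme, had 0.50 (0.348) and Serping1, the C1 inhibitor, 0.58 (0.292). The summed macrophage level was 380 to 727 FPKM in exposed hearts and 311 to 434 FPKM in vehicle hearts, and its part in the C1q values was not tested.

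Chemokines went in both directions. At an unadjusted p under 0.05, 5 of 21 tested members (23 listed) were higher and 2 lower, against 8.73% and 2.19% of all genes. Ccl8, named after its values were seen, averaged 14.8 ± 7.45 FPKM in exposed hearts and 4.97 ± 1.94 FPKM in vehicle hearts (log2 change 1.32, adjusted p = 0.101), while the neutrophil attractant Cxcl1 averaged 2.52 ± 1.08 FPKM in exposed hearts and 4.67 ± 1.99 FPKM in vehicle hearts (log2 change -0.67, adjusted p = 0.293). The most abundant members, Ccl21a and Cxcl12, had 0.15 and -0.17.

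Immediate early genes, which are induced within minutes of a stimulus, were the list with the lowest median, -0.43, with -0.38 in AngII and -0.51 in AngII plus OA. Of 18 members, 5 were lower and 0 higher at an unadjusted p under 0.05, where 2.19% of all genes were lower, and 0 were called by limma or voom. Dusp1, a MAP kinase phosphatase, had 22.0, 35.7 and 45.7 FPKM as lowest, median and highest exposed value, against 45.4, 54.8, 43.2, 59.4 and 58.7 FPKM in vehicle hearts. The ranges overlapped by a few hearts (log2 change -0.60, adjusted p = 0.183). Ier2 had -0.48, and the transcription factors Fos and Egr1, named after their values were seen, had -1.30 and -1.27, with SE of 0.48 and 0.52.

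Genes of calcium handling and ion channels had a median of -0.19, with 5 of 23 members above 0, against 64.3% of all tested genes. At an unadjusted p under 0.05, 3 were lower and 0 higher, against 2.19% and 8.73% of all tested genes. The median was -0.11 without AngII replicate 2, -0.10 without vehicle replicate 4 and -0.07 with array weights. The 3 were channel genes or their subunits, Clcn1 (-0.89), Kcnv2 (-0.69) and Kcnip2 (-0.48), and Clcn1 was called without AngII replicate 2. Clcn1, a chloride channel of muscle, averaged 0.933 ± 0.467 FPKM in exposed hearts and 2.64 ± 1.16 FPKM in vehicle hearts (adjusted p = 0.0550). Atp2a2, the calcium pump of the sarcoplasmic reticulum, had 456 to 1092 FPKM in exposed hearts and 565 to 1399 FPKM in vehicle hearts (log2 change -0.27, adjusted p = 0.750), and its inhibitor Pln had -0.19.

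Genes of the angiotensin, endothelin and adrenergic systems had a median of 0.11. At an unadjusted p under 0.05, 3 of 21 tested members (23 listed) were higher and 1 lower, against 8.73% and 2.19% of all genes. That median was 0.04 without vehicle replicate 2, 0.18 without vehicle replicate 3 and 0.01 after quantile normalization. The receptor gene Agtr1a had 7.499, 3.08, 7.64, 4.62 and 5.63 FPKM in AngII hearts, 8.36, 6.05, 7.77, 7.54 and 7.11 FPKM in AngII plus OA hearts, and 6.92, 6.39, 9.05, 9.19 and 7.999 FPKM in vehicle hearts. The groups overlapped, with the lowest value in AngII replicate 2 (log2 change -0.27, adjusted p = 0.567). Agt, the precursor angiotensinogen, had 0.62, with 1.04 in AngII and 0.21 in AngII plus OA, Ace 0.41 and the angiotensin-(1-7) receptor gene Mas1 -0.40, with adjusted p of 0.349, 0.326 and 0.198. The most abundant members, Rgs5 and Ece1, had 0.16 and 0.29, and Ece1 was at 99.7 FPKM in AngII replicate 2 and at most 28.9 FPKM in any other library.

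Genes of energy use had medians near 0, although most members of the fatty acid oxidation and citric acid cycle lists lay below 0. In the oxidative phosphorylation list (28 members), fatty acid oxidation (21) and citric acid cycle (15), limma and voom called 0 genes, and 0 had an unadjusted p under 0.05. Their medians were 0.00, -0.08 and -0.10. Above 0 were 14 of 28, 6 of 21 and 2 of 15 members, against 64.3% of all tested genes. Under each rescaling 0 of 15 citric acid cycle members were above 0. With array weights 14 of 21 fatty acid oxidation and 5 of 15 citric acid cycle members were. The AngII medians were -0.13, -0.19 and -0.22, and the AngII plus OA medians were 0.11, 0.03 and 0.03. Without AngII replicate 2 the AngII medians were -0.06, -0.07 and -0.08, and the pooled ones 0.02, -0.02 and -0.04. Without vehicle replicate 5 the pooled medians of fatty acid oxidation and the citric acid cycle were -0.17 and -0.18. Rescaling made all 3 pooled medians negative, while that of fatty acid oxidation was 0.03 with array weights and 0.02 without vehicle replicate 4. The most abundant members had log2 changes of 0.03 for Cox7b, -0.15 for Atp5a1, -0.23 for Ech1, 0.11 for Acadl, -0.14 for Idh2 and -0.04 for Sdhb. Of 21 PPAR target and lipid uptake genes 2 were higher at an unadjusted p under 0.05, close to the 8.73% of all tested genes. Fabp3 had 0.13 and Lpl 0.09. The sign of that list's median, 0.06, turned under 2 of 3 rescalings and without vehicle replicate 2 (-0.01).

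The direct test of AngII plus OA against AngII, which uses no vehicle library, called 0 genes by limma and 0 by voom, with 866 at an unadjusted p under 0.05 (6.60%, 1.35% higher and 5.25% lower with oleic acid). The 3 smallest p belonged to Trim59, C1qtnf6 and Cdc20, each with an adjusted p of 0.574. Trim59, a ubiquitin ligase of the TRIM family, had 0.481, 0.853, 0.859, 0.562 and 0.639 FPKM in AngII plus OA hearts, against 1.81, 1.54, 1.13, 1.24 and 1.46 FPKM in AngII hearts. The groups did not overlap, and the vehicle hearts, at 0.443 to 0.777 FPKM, were close to the AngII plus OA hearts. The difference was -0.54 for Trim59 (95% interval -0.75 to -0.32), -0.87 for C1qtnf6, a secreted C1q-like protein (-1.25 to -0.50), and -0.76 for Cdc20, an activator of the anaphase-promoting complex (-1.09 to -0.43). These intervals are per gene and not adjusted over genes.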

How the data were processed

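Messenger RNA from 15 mouse ventricle samples was sequenced, 5 per group. The authors deposited FPKM values per gene (36653 Ensembl gene IDs, 36499 with a symbol). The submitters' processing notes name HISAT2 2.0.4 and mm8, and the sources used here do not give the counter, the annotation, the strandedness or how FPKM were computed. FPKM steps gave whole reads, within 0.02, in every library for 86.2% of 28996 genes above 0, with FPKM denominators of 24.5 to 28.3 M fragments. Precision is limited by these reads and by 5 animals per group.

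Values were analysed as log2(FPKM + 1) for 13121 genes with a mean of at least 0.5 FPKM, so fold changes of low genes are understated. One limma fit with a mean-variance trend (limma 3.58.1, R 4.3.3) covered the 3 groups. Its contrasts were the mean of both exposed groups minus vehicle, each exposed group minus vehicle, and AngII plus OA minus AngII, with Benjamini-Hochberg adjustment over all tested genes and calls at an adjusted p under 0.05. The code of the fit was run on simulated counts with the same spread setting for every gene and no outlying library. That run does not cover the spread between the libraries seen here. Genes called in both exposed groups with the same sign counted as changed alike. The rule named 14 fixed genes, the genes changed alike, called list members or else the 2 most abundant, and the 3 smallest p of the oleic acid difference. The members, lists and rule were chosen with earlier results of these data known. Alternatives varied the pseudocount, filter, scaling, library weights, blocking and left-out library. A limma voom fit on estimated reads was added after seeing the data.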

Additional observations from a re-analysis of the deposited data

Results flagged for a closer look

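A library lay far from the other 4 of its group, by Dixon's criterion on log2(FPKM + 1), in 29 of 339 groups tested, or 8.55%. The criterion nominally flags about 1 in 20. That rate cannot be set against 8.55%, because the groups share libraries and many of the genes were named for their values. Of the 29, 11 were in AngII replicate 2. In that library Myh6 (1771 FPKM, nearest other AngII library 2818), Myl2 (2555, nearest 5186), Mb (6173, nearest 9205), Serpinh1 (63.6, nearest 210), Plxnb1 (0.915, nearest 2.62), Fkbp4 (28.8, nearest 77.0) and Smtn (15.7, nearest 32.6) were low. Ece1 (99.7 FPKM, nearest 27.999), Gsdme (2.38, nearest 1.11), Gtf2a2 (19.7, nearest 13.6) and March5 (42.6, nearest 33.7) were high there.

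In AngII plus OA replicate 5, Postn (11.4 FPKM, nearest 32.3) and Col3a1 (20.2, nearest 42.5) were low. In replicate 2 of that group Des (918 FPKM, nearest 595) and Sap30 (8.92, nearest 6.94) were high, and Psap (211, nearest 272), Lyz2 (137, nearest 259) and Cacna1s (0.195, nearest 0.431) were low. Bmp6 (16.4 FPKM, nearest 11.8) and Msrb1 (61.6, nearest 52.1) were high in replicate 1, while Myh6 (2929, nearest 3313) was low in replicate 3 and Acadl (424, nearest 478) in replicate 4.

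Among vehicle hearts, Myl7, an atrial light chain, was at 1.56 FPKM in replicate 1 (nearest 116), 2210011C24Rik was high in replicate 2 (3.40, nearest 1.90) and Gcnt1 was high in replicate 3 (1.05, nearest 0.929). Fxyd5 was low in replicate 4 (6.65, nearest 8.65). Ech1 (505, nearest 590), Idh2 (520, nearest 665) and Mettl9 (12.0, nearest 13.3) were low in replicate 5.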

How the results depend on the processing

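The count of genes called in exposed against vehicle hearts, 3 as reported, was 49 with a pseudocount of 0.1, 34 with a mean of at least 5 FPKM, 0 with every gene above 0, 1 after quantile normalization, 16 after a shift to 1 median, 8 after rescaling without mitochondrially encoded genes, 0 in a 2-group fit, 81 with array weights, 0 at an adjusted p under 0.01 and 5 by voom. It was 0 to 106 with 1 library left out. The calls split 9 higher and 7 lower after the median shift, and 4 and 4 after rescaling. The median change of all genes was 0.05 as deposited and -0.01 after quantile normalization. Genes changed alike numbered 0 throughout, and 2 under the looser definition. The oleic acid difference gave 0 to 1 calls with 1 library left out, the 1 being without AngII replicate 3. Non-overlapping genes numbered 30 at a mean of at least 5 FPKM, 30 after rescaling and 49 to 134 with 1 library left out. Leaving a library out can only keep or raise that count, because the tested genes stay the same. The mitochondrial difference was -4.46 points (exact permutation p = 0.0633) for protein-coding mitochondrial genes, and -6.02 to -4.49 with 1 library left out, with p of 0.0609 without vehicle replicate 4 (-4.55) and 0.0589 without vehicle replicate 5 (-4.67). Same-numbered samples did not pair throughout, with 6 of 15 pairs correlated over 0.1 and a range of -0.35 to 0.435. The pairs of replicate 3 were all positive (0.435, 0.211 and 0.256), and a shared origin of same-numbered samples was not tested. The fit with the replicate block called 0 genes. The cause of these shifts was not tested.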

Other observations

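Of 18 genes of endoplasmic reticulum stress and chaperones, 16 were above 0, where 64.3% of all tested genes were, and 1 was higher at an unadjusted p under 0.05, where 8.73% were. The median log2 change was 0.20, with 0.21 in each exposed group. It was 0.10 after quantile normalization, with 13 above 0, and 0.13 without vehicle replicate 2. Without AngII replicate 2, 2 members were called, against 0.694% of all tested genes. Pdia3, a protein disulfide isomerase, averaged 110 ± 19.6 FPKM in exposed hearts and 82.9 ± 8.36 FPKM in vehicle hearts (SD, n = 10 and 5; log2 change 0.39, limma adjusted p = 0.222), while the main chaperone Hspa5 had 0.04. All 9 tested insulin-like growth factor genes were above 0 as deposited and 7 after rescaling without mitochondrially encoded genes, and 4 were higher at an unadjusted p under 0.05. Igfbp7, a secreted binding protein, averaged 219 ± 89.8 FPKM in exposed hearts and 121 ± 24.8 FPKM in vehicle hearts (log2 change 0.78, adjusted p = 0.148).

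Lysosomal genes had 8 of 18 members higher at an unadjusted p under 0.05 and a median of 0.24. Ctss, a cathepsin of antigen-presenting cells, had 0.95 (limma adjusted p = 0.141) and Psap, the precursor of the saposins, -0.04. All 16 interferon-stimulated genes were above 0 as deposited, with a median of 0.21, but 13 after rescaling without mitochondrially encoded genes (median 0.12) and 14 after a shift to 1 median. Of the 16, 1 had an unadjusted p under 0.05, against 8.73% of all genes higher. In these 4 lists limma called 0 genes with all libraries, and voom called 0. The named members of these lists were chosen after their values were seen.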
